A study of Mus musculus with 12 samples.

Results

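The 41 genes described here encode heat shock proteins and their co-chaperones, taken by gene symbol from a table of 27933 genes counted in mouse thoracic aorta. All 41 symbols were in the table, and all 41 passed the filter on low counts that left 14621 genes for testing. RNA came from 12 libraries in 4 groups of 3. C57BL/6J mice, either wild type (WT) or labelled as lacking the alpha7 nicotinic acetylcholine receptor (labelled KO), inhaled room air or nicotine vapor. Exposure began at 5 months of age and ran for 12 weeks, and the aortas were taken at 8 months, cleaned of fat and frozen. Strain, tissue, age and the length of exposure were therefore shared by all groups. The labels do not say which part of Chrna7, the receptor gene, is deleted, whether each library is a separate mouse, or which sex was used. The p-values below thus measure the spread between libraries, which may be technical. Levels are given as CPM, the count scaled to the size of the library with edgeR's TMM factors, always in the order WT air 8, 9 and 10, WT nicotine 6, 11 and 12, labelled KO air 1, 2 and 7, and labelled KO nicotine 3, 4 and 5.

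Heat shock proteins are molecular chaperones that bind unfolded stretches of other proteins, keep them from clumping and let them fold or be handed on for degradation. HSP70 proteins do this in cycles driven by ATP, with HSP40 (J-domain) proteins delivering the client and HSP110 and BAG proteins releasing the bound nucleotide. HSP90 takes over clients late in folding, small heat shock proteins hold unfolded proteins without ATP, and separate chaperones serve the endoplasmic reticulum and the mitochondrion. The transcription factor HSF1 induces many of these genes by binding inverted repeats of the unit GAA, called heat shock elements. In the arterial wall several small heat shock proteins are abundant in smooth muscle, where they associate with the cytoskeleton, and BAG3 works with HSPB8 in clearing damaged filament proteins.

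The bases in front of the genes show which members carry the letters of a heat shock element close to their start. RefSeq windows (GRCm38.p6) from 250 bases before to 50 bases after a gene's start were at hand for 33 of the 41 members. GAANNTTC or TTCNNGAA, which each read the same on both strands, stood in 14 of the 33, against 17.0% of all 27025 genes with a window. The longer form of 3 units, GAANNTTCNNGAA or TTCNNGAANNTTC, which contains the shorter one and was searched on both strands, stood in 5 of the 33 (Hsph1, Dnajb6, Chordc1, Hspd1 and Hspe1), against 0.662% of all genes. The endoplasmic reticulum stress element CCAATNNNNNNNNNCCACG, searched on both strands, stood in Hspa5 and Hsp90b1 only among the members, against 0.137% of all genes. A match describes the letters and does not show binding. The sequences shown, 5′ to 3′ along the gene, are those of inducible members described most fully below, of 2 members with runs of units and of one with the stress element, with the matched units in capitals. The first 4 are the 150 bases before the start, Dnajb4 the 60 bases before it, Bag3 bases 21 to 50 after it, and the last 3 stretches of 30 bases around the match.
Hspa1b (chr17:34959239-34959388, minus strand): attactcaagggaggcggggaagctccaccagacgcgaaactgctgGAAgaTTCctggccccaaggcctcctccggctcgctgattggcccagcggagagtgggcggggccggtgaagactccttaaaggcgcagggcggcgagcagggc
Hspa1a (chr17:34972157-34972306, minus strand): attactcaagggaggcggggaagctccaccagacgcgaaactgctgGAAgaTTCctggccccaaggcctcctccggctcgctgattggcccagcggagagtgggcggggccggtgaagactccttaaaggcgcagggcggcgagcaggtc
Hspb1 (chr5:135887769-135887918, plus strand): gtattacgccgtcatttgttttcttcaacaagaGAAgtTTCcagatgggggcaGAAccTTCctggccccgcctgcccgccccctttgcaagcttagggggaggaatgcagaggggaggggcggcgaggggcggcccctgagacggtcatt
Dnajb1 (chr8:83608025-83608174, plus strand): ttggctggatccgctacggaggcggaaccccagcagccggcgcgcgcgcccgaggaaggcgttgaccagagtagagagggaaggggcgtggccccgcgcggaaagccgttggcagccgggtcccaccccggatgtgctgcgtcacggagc
Dnajb4 (chr3:152193846-152193905, minus strand): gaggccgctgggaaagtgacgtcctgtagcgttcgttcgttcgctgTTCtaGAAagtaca
Bag3 (chr7:128523603-128523632, plus strand): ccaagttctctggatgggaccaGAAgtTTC
Chordc1 (chr9:18292257-18292286, plus strand): caaccgGAAcgTTCggGAAaaTTCctGAAg
Hspe1 (chr1:55088053-55088082, plus strand): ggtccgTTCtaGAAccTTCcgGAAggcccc
Hspa5 (chr2:34772018-34772047, plus strand): gacttcaCCAATcggaggcctCCACGacgg

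Hspa1a and Hspa1b, copies of the same inducible HSP70 gene, were identical at 149 of these 150 bases and at 247 of the 250 bases before the start, so both windows hold the same pair of units. Hspb1 held 2 separate pairs, Chordc1 a run of overlapping pairs across its start, and the Dnajb1 window none in these letters. Hspd1 and Hspe1, which encode the mitochondrial chaperonin and its lid, start 216 bases apart on opposite strands and share the run of units shown for Hspe1.

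Library totals ran from 10240031 to 12628323 counts, and Myh11, the smooth muscle myosin taken as the defining marker of the labelled tissue, stood at 10248 to 21738 CPM. Chrna7 had 9 to 37 counts in WT libraries and 8 to 28 in labelled KO libraries (log2 fold change -0.15 ± 0.33 SE, edgeR adjusted p = 0.934 over both exposures). Since the deleted part is not stated, a count over the whole gene checks nothing, and every direction between genotypes below rests on the labels. Labelled KO libraries are numbered 1 to 5 and 7 and WT libraries 6 and 8 to 12. If the numbers follow an order of handling, it cannot be told apart from genotype. Labelled KO nicotine 3 stood apart in transcripts of other tissues. Its 14 skeletal muscle markers summed to 269.8 CPM against 23.7 to 79.1 in the other 11 libraries, and 6 hepatocyte markers to 2384 CPM against 20.5 to 448. Labelled KO air 2 had the highest sum of 8 cardiac muscle markers, 498 CPM against 23.9 to 209 in the other 11 libraries. Labelled KO air 7 had the highest sum of 6 mesothelial markers, 75.7 CPM against 2.66 to 40.4. The 7 brown adipocyte markers summed to 1772, 353 and 698 CPM in WT air and to 809 to 1689 in labelled KO air. Ucp1, the first of that list, stood at 153 to 1026 CPM. The part of cardiac muscle and brown adipocyte content in the members' values was not tested. Genes of the mitochondrial genome took 7.52% of counts in WT air 8 against 3.004% and 3.62% in WT air 9 and 10, and 3.73% to 7.25% in the other 9 libraries. Because this is whole tissue, fewer cells of a type and less RNA per cell cannot be told apart.

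The members together took 0.698% to 1.84% of all counts, and their share separated the genotypes except in 1 library. WT air libraries had 1.39, 1.10 and 0.947%, WT nicotine libraries 1.003, 1.59 and 1.84%, labelled KO air libraries 0.767, 0.756 and 0.698% and labelled KO nicotine libraries 1.18, 0.772 and 0.777%. All WT libraries thus lay above all labelled KO libraries other than KO nicotine 3. WT nicotine 12 was the highest of the 12 libraries for 22 of the 41 members and WT nicotine 11 for 7. Over the members, the highest library was a median of 2.65 times the lowest, against 1.94 for all tested genes, and the widest ranges were those of Hspa1b (44.9 times) and Hspa1a (43.5 times).

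**Figure D1:**
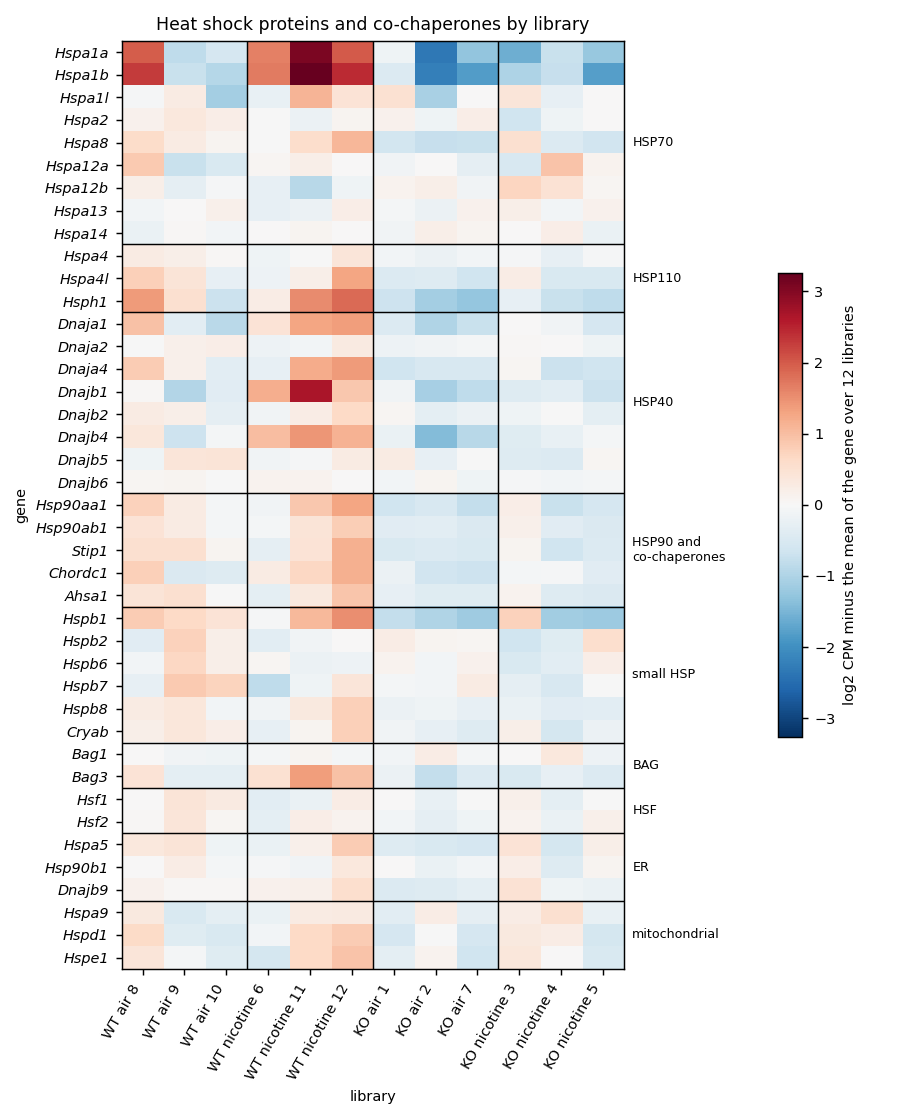
Log2 CPM of each of the 41 members (rows, grouped by role) in each library (columns, grouped by genotype and exposure), minus that gene's mean over the 12 libraries; red is above and blue below the mean. WT air 8, WT nicotine 11 and WT nicotine 12 are red in the rows of Hspa1a, Hspa1b, Hsph1, Dnaja1 and Hsp90aa1, while the labelled KO libraries are pale or blue there, with KO nicotine 3 slightly above the mean for Hsp90aa1.

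With all 12 libraries and no covariate, nicotine against air gave a higher fitted level for most members in both genotypes, but this direction did not hold with a score of the skeletal muscle markers as a covariate or, in WT, without WT nicotine 12. No member passed edgeR's quasi-likelihood test after Benjamini-Hochberg adjustment over all tested genes. In WT, 30 of 41 members lay above 0, with a median log2 fold change of 0.17 against 0.00 for all tested genes. Of the 41, 0 were called (the background was 0.0205% of all tested genes higher and 0% lower), and at an unadjusted p below 0.05 edgeR gave 4 higher and 0 lower (5.43% and 4.41% of all tested genes). DESeq2 called 3 of the 41 higher, Dnajb1, Dnajb4 and Bag3, with a background of 0.548%. The authors' deposited table called 2 higher, Dnajb4 and Bag3, and 0 lower, with backgrounds of 0.736% and 0.0723%. In labelled KO, 31 of 41 lay above 0, with a median of 0.13 against 0.01, and edgeR, DESeq2 and the authors' deposited table each called 0 members (edgeR and DESeq2 called 0% of all genes, the authors' deposited table called 0.0233% higher and 0.0174% lower). At an unadjusted p below 0.05 edgeR gave 1 higher and 0 lower there (2.48% and 2.10% of all tested genes). The nicotine and air libraries of WT did not overlap for 4 members higher (Dnajb1, Dnajb4, Bag3 and Dnajb9) and for Hspa2 lower, against 7.13% and 6.05% of all tested genes. In labelled KO this held for Dnajb9 higher and for 0 members lower, against 5.13% and 5.55%.

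Single libraries and one marker score moved both the direction and these counts. Without WT nicotine 12, 20 of 41 members lay above 0 in WT with a median of -0.018, and 3 were higher and 4 lower at an unadjusted p below 0.05 (7.06% and 5.39% of all tested genes). Without WT air 8 the counts in WT were 12 higher and 2 lower, where the shares of all tested genes also rose, to 9.73% and 6.50%. Without WT nicotine 6 they were 9 higher and 0 lower (4.27% and 2.97%). In labelled KO, leaving out nicotine 3 gave 23 of 41 above 0 with a median of 0.03, and 0 at an unadjusted p below 0.05 in either direction (1.04% and 1.10%). Leaving out labelled KO nicotine 4 gave 3 higher and 0 lower (2.88% and 1.81%), and leaving out nicotine 5 gave 3 higher and 4 lower (5.68% both). Leaving out labelled KO air 1 gave 2 higher (1.89%). With the skeletal muscle score as a covariate 20 of 41 members lay above 0 in WT, with a median of -0.045, and 13 of 41 in labelled KO, with a median of -0.050. At an unadjusted p below 0.05 that fit gave 3 higher and 2 lower in WT (4.64% and 3.65%) and 0 in labelled KO (0.766% and 0.903%). Of the 13 tested markers in this score, 12 lay above 0 with nicotine in WT and 13 in labelled KO. The score thus goes with exposure, and this fit cannot fully tell the 2 apart.

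The difference between these nicotine effects (the interaction) was above 0 for 20 members and below 0 for 21, with a median of -0.01 against 0.02 for all tested genes. Neither edgeR (0% of all tested genes) nor DESeq2 (0.0171% lower) called a member, and at an unadjusted p below 0.05 edgeR gave 1 above (Hspa12b) and 2 below (Dnajb1 and Bag3), where 1.85% and 2.58% of all tested genes did so. Without WT air 8 the lower count was 7 (3.74% of all tested genes), and without WT nicotine 12 the higher count was 4 (3.04%). Averaged over genotypes, nicotine gave 31 members above 0 with a median of 0.19 against 0.01. There edgeR called 0 (0% of all tested genes), with 5 higher and 2 lower at an unadjusted p below 0.05 (5.62% and 5.33% of all tested genes), and DESeq2 called Dnajb1 and Dnajb4 higher (0.527%). The 5 became 13 without WT air 8 (10.5% of all tested genes), 12 without WT nicotine 6 (5.26%) and 15 with a score of 12 immediate early genes, rapidly induced regulators, as a covariate (8.88%). It became 2 with the white adipocyte score (3.26%) and 2 with the skeletal muscle score (2.41%), and with the latter 14 of 41 members lay above 0. All 12 immediate early genes lay above 0 with nicotine on this average, so their score and exposure cannot be fully told apart.

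Markers of other cell types also differed in fitted level in this contrast, with 0 called by edgeR after adjustment in either genotype. All 10 contractile smooth muscle markers had a lower fitted level with nicotine in both genotypes, 5 of them at an unadjusted p below 0.05 in WT, 2 in labelled KO and 8 averaged over genotypes. Their sum ran from 35313 to 53380 CPM in WT air, 32134 to 36911 in WT nicotine, 36946 to 44433 in labelled KO air and 26404 to 43235.5 in labelled KO nicotine, and none of the 10 was at 0 in any library. All 8 macrophage markers lay above 0 in WT, 5 at an unadjusted p below 0.05, and 6 of 8 in labelled KO, 1 at that level. Their sum ran from 254 to 274 CPM in WT air, 399 to 553 in WT nicotine, 257 to 413 in labelled KO air and 293 to 554 in labelled KO nicotine. Of 13 tested skeletal muscle markers 12 lay above 0 in WT and 13 in labelled KO, 2 and 8 of them at an unadjusted p below 0.05. Those markers summed to 24.3 to 36.7 CPM in WT air and to 23.7, 60.6 and 74.7 in WT nicotine 6, 11 and 12, the last 2 being the libraries highest for 29 of the 41 members. In labelled KO they summed to 28.6 to 42.7 CPM in air and to 269.8, 79.1 and 27.01 in nicotine. Pvalb was at 0 in all 12 libraries and Acta1, the first of that list, stood at 1.70 to 27.5 CPM. White adipocyte markers lay above 0 for 11 of 12 in WT and 12 of 12 in labelled KO, with sums of 1556 to 4781 and 4194 to 5053 CPM in WT air and nicotine and 2715 to 4874 and 2831 to 7431 in labelled KO, and Adipoq at 55.6 to 423.8. With the white adipocyte score as a covariate 31 of 41 members lay above 0 in WT and 27 in labelled KO. The 5 tested neutrophil markers lay above 0 in WT, with a median of 2.24 and 3 at an unadjusted p below 0.05. In labelled KO 1 of the 5 did. The neutrophil list summed to 4.35 to 20.9 CPM in WT air and 15.2 to 71.2 in WT nicotine. All 6 mesothelial and 8 fibroblast markers lay above 0 in WT, 0 at that level, and 2 and 0 of them in labelled KO. The part of smooth muscle, macrophage, neutrophil, mesothelial and fibroblast content in the members' values was not tested.

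**Figure D2:**
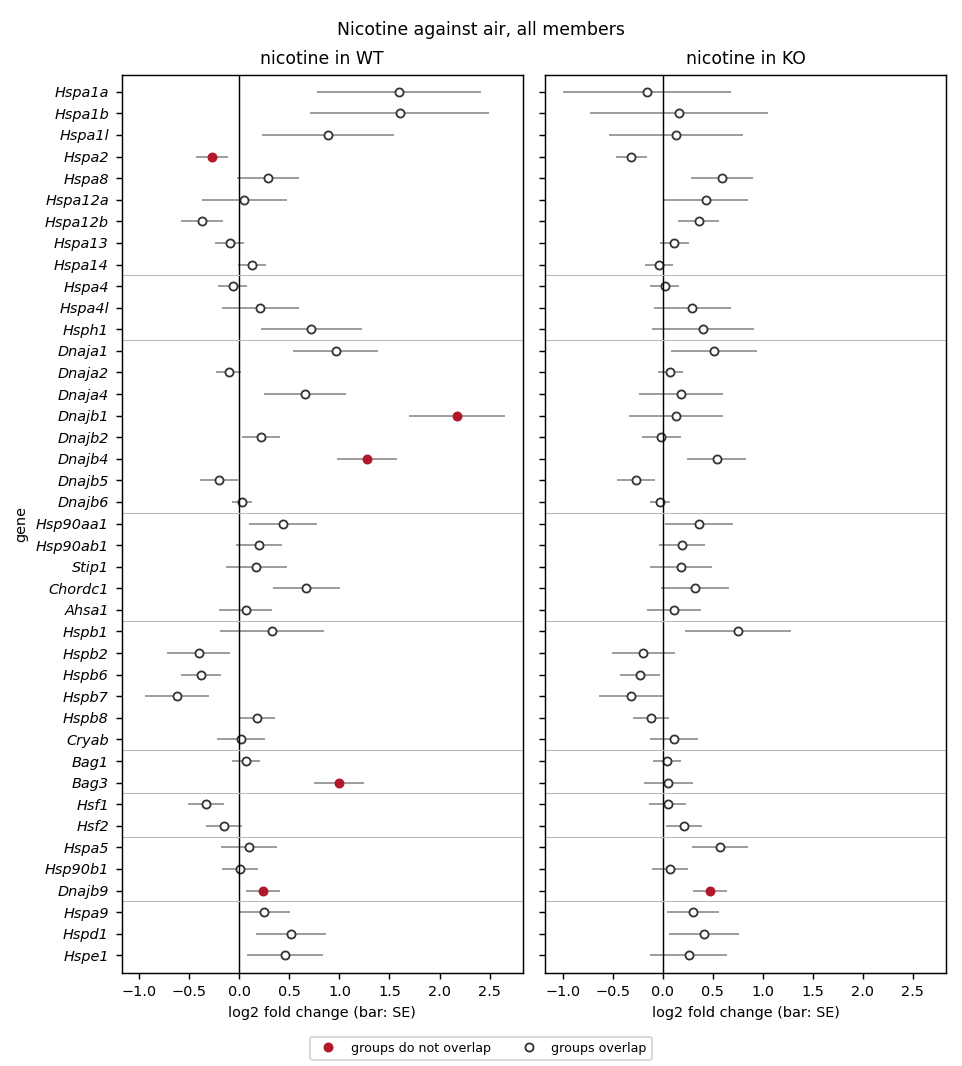
Log2 fold change of nicotine against air for each member in WT (left) and labelled KO (right), with bars of 1 SE from edgeR; filled points are members whose 3 nicotine and 3 air libraries do not overlap. Dnajb1, Dnajb4 and Bag3 lie at 2.17, 1.27 and 0.998 in WT and at 0.13, 0.54 and 0.06 in labelled KO.

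Between genotypes most members had a lower fitted level in the libraries labelled KO. In air, 36 of 41 lay below 0, with a median log2 fold change of -0.35 against 0.00 for all tested genes, and in nicotine 33 of 41 did, with a median of -0.45 against 0.01. Here too edgeR called 0 of 41 in either exposure, where it called 0% of all tested genes in air and 0.00684% lower in nicotine. In air 13 members were lower at an unadjusted p below 0.05 and 0 higher, against 2.12% and 2.24% of all tested genes. In nicotine 16 were lower and 1 higher, against 4.06% and 4.29%. The groups did not overlap for 15 members in air, all lower in labelled KO (6.06% of all tested genes were lower and 5.75% higher in this way), and for 10 lower and 1 higher in nicotine (5.59% and 5.80%). DESeq2 called 0 in air (0.0525% of all genes lower and 0.0262% higher) and 6 lower in nicotine, namely Hspa1a, Hspa1b, Hsph1, Dnajb1, Dnajb4 and Bag3, where it called 0.426% of all genes lower.

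Single libraries moved these counts. The 13 members in air became 4 without WT air 8, where 2.51% of all tested genes were lower at that level rather than 2.12%. They became 7 without labelled KO air 2 (1.44%) and 6 without labelled KO air 7 (1.49%). The 16 in nicotine became 8 without WT nicotine 12 (5.04% rather than 4.06%) and 10 without labelled KO nicotine 5 (5.24%). Averaged over both exposures, 35 of 41 members lay below 0 with a median of -0.36 against 0.01, and 22 were lower and 1 higher at an unadjusted p below 0.05 (4.27% and 4.13% of all tested genes). Leaving out each library in turn gave 19 to 26 for that lower count. On this average edgeR called 0 members (0% of all tested genes), the lowest adjusted p being 0.186 for Bag3, and DESeq2 called 13 lower, with a background of 0.582%. The 13 were Hspa1a, Hspa1b, Hspa8, Hsph1, Dnaja1, Dnaja4, Dnajb1, Dnajb4, Hsp90aa1, Hsp90ab1, Stip1, Hspb8 and Bag3. Marker lists also differed in fitted level on this average, with 0 markers called by edgeR. All 6 hepatocyte markers lay above 0, 6 at an unadjusted p below 0.05, with a median of 2.66. All 6 mesothelial and 13 tested skeletal muscle markers lay above 0, 3 and 2 at that level. The 5 tested neutrophil markers lay below 0, 1 at that level. The part of hepatocyte, mesothelial and neutrophil content in the members' values was not tested.

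**Figure D3:**
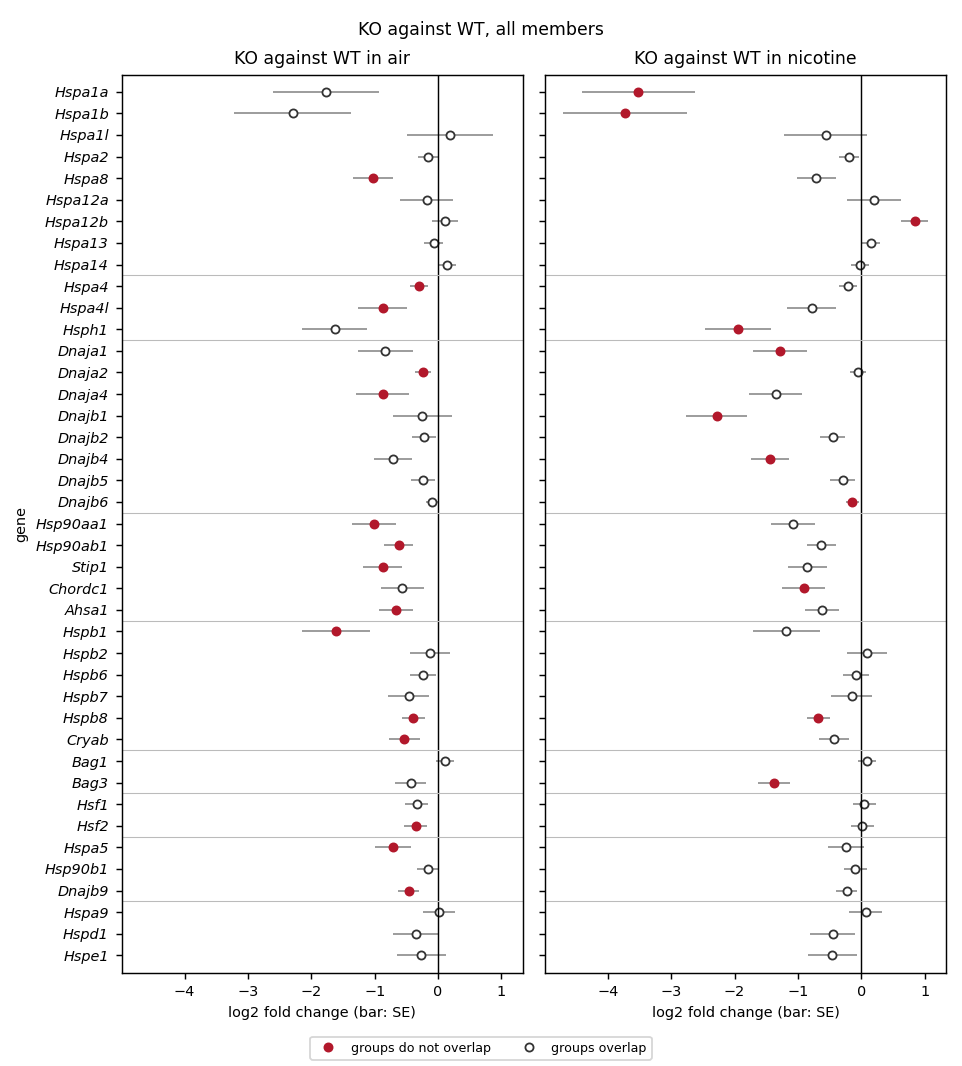
Log2 fold change of labelled KO against WT for each member in air (left) and in nicotine (right), with bars of 1 SE from edgeR; filled points are members whose groups do not overlap. In air 15 members are filled, all below 0, and in nicotine 10 below 0 and Hspa12b above it.

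Among the HSP40 proteins, which recruit clients to HSP70, Dnajb1 and Dnajb4 had the largest nicotine differences in WT. Dnajb1, the main stress-inducible HSP40, stood at 49.6, 24.9 and 37.3 CPM in WT air and at 109, 307 and 87.8 in WT nicotine. In the libraries labelled KO it stood at 44.4, 22.6 and 27.2 in air and 35.8, 37.9 and 29.7 in nicotine. All WT nicotine libraries were above the other 9, with WT nicotine 11 far above the rest. The log2 fold change of nicotine in WT was 2.17 ± 0.48 (SE), or 4.51-fold (edgeR adjusted p = 0.238, DESeq2 6.94e-05). In the authors' deposited table it was 2.17 with an adjusted p of 0.0574. Without WT nicotine 11 it was 1.41 (edgeR adjusted p = 0.306). The value in labelled KO was 0.13 ± 0.47 and the interaction -2.04 ± 0.67 (edgeR adjusted p = 0.999), which was -1.27 without WT nicotine 11.

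Dnajb4, an HSP40 present in muscle cells, stood at 358, 175 and 267 CPM in WT air and at 562, 759 and 613 in WT nicotine, against 237, 104 and 148 in labelled KO air and 210.0, 235 and 265 in labelled KO nicotine. Again every WT nicotine library exceeded the other 9, while labelled KO air and KO nicotine overlapped at library 1. Nicotine in WT gave 1.27 ± 0.30 on the log2 scale (edgeR adjusted p = 0.248, DESeq2 0.00477) and 1.27 in the authors' deposited table (adjusted p 0.000574). In labelled KO it was 0.54 ± 0.30, and the interaction -0.74 ± 0.42 did not pass (edgeR adjusted p = 0.999). Without labelled KO air 1 these were 0.91 and -0.37, and without labelled KO air 2 the former was 0.30. Both genes were lower in labelled KO than in WT under nicotine, Dnajb1 at -2.29 ± 0.48 and Dnajb4 at -1.44 ± 0.30 (edgeR adjusted p = 0.291 and 0.245). That comparison uses the same 3 WT nicotine libraries as the one within WT, so the values are not independent.

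Dnaja1, a farnesylated HSP40 that assists HSC70, stood at 194, 78.3 and 54.3 CPM in WT air, at 137, 243 and 256 in WT nicotine, 72.9, 50.3 and 60.4 in labelled KO air and 101, 91.9 and 68.7 in labelled KO nicotine. WT air 8 lay among the nicotine libraries, so the WT groups overlapped, and nicotine in WT gave 0.96 ± 0.43 (edgeR adjusted p = 0.506). Without WT air 8 it was 1.71 (edgeR adjusted p = 0.0572) and without WT air 10 it was 0.64. Of the remaining HSP40 genes, Dnaja4 had its 3 highest values in WT nicotine 12, WT nicotine 11 and WT air 8, at 72.1, 63.4 and 48.2 CPM. Dnaja2, Dnajb2, Dnajb5 and Dnajb6 had nicotine values in WT between -0.20 and 0.22 on the log2 scale. Dnajb6, which suppresses aggregation of polyglutamine proteins, differed by only -0.15 between labelled KO and WT in nicotine, although its groups there did not overlap.

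Bag3, the co-chaperone that links HSP70 and HSPB8 to selective autophagy, followed the same libraries. It stood at 210.3, 123 and 124 CPM in WT air and at 219, 397 and 298 in WT nicotine, and at 136, 89.5 and 114 in labelled KO air and 110.2, 129 and 113 in labelled KO nicotine. WT nicotine 6 exceeded WT air 8 by a narrow margin, and every labelled KO library was below every WT nicotine library. Nicotine in WT gave a log2 fold change of 0.998 ± 0.25 (edgeR adjusted p = 0.264, DESeq2 0.0199), and in the authors' deposited table it was 0.996 with an adjusted p of 0.0391. Without WT air 8 edgeR called it, at 1.33 with an adjusted p of 0.0468. Labelled KO against WT in nicotine gave -1.38 ± 0.25 (edgeR adjusted p = 0.176), the lowest adjusted p of any member in any comparison. The interaction was -0.94 ± 0.35 (edgeR adjusted p = 0.999). Bag1, which releases nucleotide from HSC70, stayed between 129 and 186 CPM in all 12 libraries.

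The inducible HSP70 genes Hspa1a and Hspa1b spread most. Hspa1b stood at 703, 86.2 and 75.0 CPM in WT air, at 468, 1378 and 776 in WT nicotine, 105, 30.7 and 40.5 in labelled KO air and 70.9, 85.7 and 41.4 in labelled KO nicotine. Hspa1a stood at 207, 29.5 and 35.7 CPM in WT air, at 164, 446 and 209.6 in WT nicotine, 47.8, 10.3 and 21.5 in labelled KO air and 17.4, 31.7 and 22.3 in labelled KO nicotine. WT air 8 sat with the nicotine libraries of its genotype, and WT air 9 and 10 sat among the labelled KO libraries. Nicotine in WT gave 1.60 ± 0.89 for Hspa1b and 1.59 ± 0.82 for Hspa1a with overlapping groups (edgeR adjusted p = 0.594 and 0.563). Without WT air 8 these were 3.47 and 3.09 (edgeR adjusted p = 0.0862 and 0.117), and Hspa1a was 1.05 without WT nicotine 11. The interaction for Hspa1a was -1.75 ± 1.16 (edgeR adjusted p = 0.999), which was -3.24 without WT air 8 and -1.01 without labelled KO air 1.

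In nicotine all 3 WT libraries of both genes lay above all 3 labelled KO libraries. Labelled KO against WT gave -3.52 ± 0.89 for Hspa1a, 11.5-fold lower (edgeR adjusted p = 0.413, DESeq2 0.00902), and -3.73 ± 0.98 for Hspa1b, 13.3-fold lower (edgeR adjusted p = 0.415). Over both exposures Hspa1b gave -3.01 ± 0.67 (edgeR adjusted p = 0.281, DESeq2 0.00245). The copies are nearly identical and the counting could split their reads. Hspa1b had 1.85 to 4.07 times the counts of Hspa1a, and the sum of the pair ran from 40.9 to 1825 CPM with the same highest and lowest libraries as each copy. Hspa1l, the testis copy beside Hspa1a, stayed at or below 1.76 CPM in every library.

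Hspa8, the constitutive HSC70, is the most abundant HSP70 here. It stood at 2716, 2179.8 and 1933 CPM in WT air, at 1777, 2700.4 and 3842 in WT nicotine, 1199, 1069 and 1088 in labelled KO air and 2578, 1314 and 1175 in labelled KO nicotine. All WT air libraries exceeded all labelled KO air libraries, and labelled KO nicotine 3 stood well above its group. Labelled KO against WT in air was -1.03 ± 0.31 (edgeR adjusted p = 0.995), and in nicotine -0.72 ± 0.31, the latter being -0.41 without WT nicotine 12 and -1.15 without labelled KO nicotine 3. Nicotine in labelled KO gave 0.59 ± 0.31 (edgeR adjusted p = 0.878), and without library 3 it was 0.16. With the skeletal muscle marker score as a covariate the same value was -0.021.

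Hspa2, a testis-enriched HSP70, was among the 11 members below 0 with nicotine in WT and the 10 in labelled KO. Its level was 84.6, 99.0 and 89.1 CPM in WT air and 76.0, 67.6 and 81.9 in WT nicotine. It stood at 85.6, 70.4 and 89.6 in labelled KO air and 49.4, 69.8 and 78.4 in labelled KO nicotine. The WT groups did not overlap and the labelled KO groups did, with log2 fold changes of -0.27 ± 0.16 and -0.31 ± 0.16 (edgeR adjusted p = 0.593 and 0.878), the second being -0.14 without labelled KO nicotine 3. Hspa12b, a distant HSP70 of endothelial cells, was the member higher in labelled KO under nicotine. It stood at 33.2, 23.6 and 28.4 CPM in WT air, at 23.9, 15.5 and 26.4 in WT nicotine, 31.7, 33.2 and 26.99 in labelled KO air and 47.0, 40.5 and 30.3 in labelled KO nicotine. The value in nicotine was 0.84 ± 0.21 (edgeR adjusted p = 0.342), with nicotine 0.36 ± 0.21 in labelled KO (0.22 without nicotine 3) and an interaction of 0.73 ± 0.30 (edgeR adjusted p = 0.999). Cdh5, the defining endothelial marker, was 192, 157 and 127 CPM in WT nicotine and 144, 200.4 and 129 in labelled KO nicotine, and the part of endothelial content in this result was not tested. Hspa12a, Hspa13 and Hspa14 gave log2 values between -0.18 and 0.20 in the 2 genotype comparisons.

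The HSP110 proteins exchange the nucleotide of HSP70. Hsph1, the inducible one, stood at 805, 435 and 188 CPM in WT air, at 363, 883 and 1105 in WT nicotine, 192, 142 and 127 in labelled KO air and 253, 184 and 171 in labelled KO nicotine. The labelled KO libraries were all below the WT nicotine libraries, and in air WT 10 lay slightly below labelled KO 1. Labelled KO against WT was -1.63 ± 0.52 in air (edgeR adjusted p = 0.995), -1.95 ± 0.52 in nicotine (edgeR 0.415, DESeq2 0.0351) and -1.79 ± 0.37 over both (edgeR 0.215, DESeq2 0.000759). Without WT air 8 the value in air was -1.004. Hspa4l and Hspa4 gave -0.87 and -0.30 in air, both without overlap between groups.

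**Figure D4:**
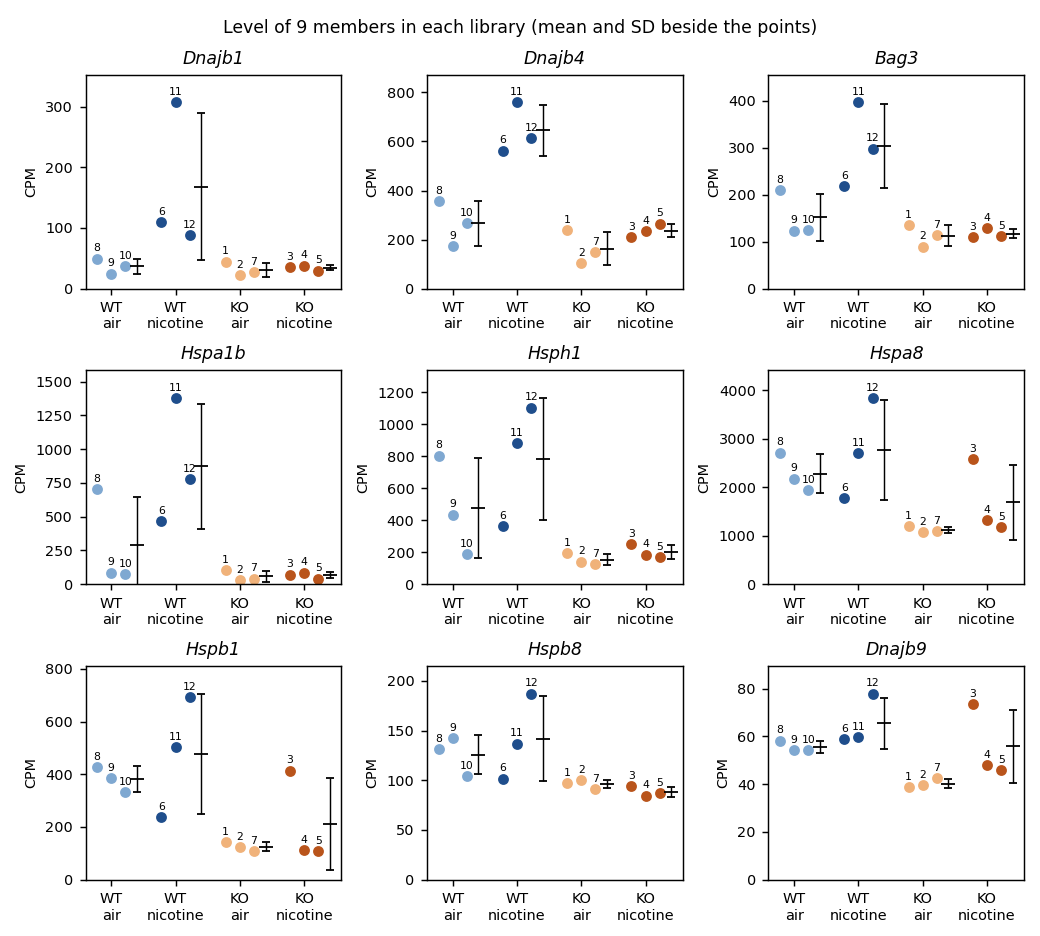
CPM of 9 members in each library (points, with library numbers) and the mean and SD of each group beside them, on linear axes from 0; the lower SD bar of Hspa1b in WT air is cut at 0. WT nicotine 11 is the highest library for Dnajb1, Dnajb4, Bag3 and Hspa1b and WT nicotine 12 for Hsph1, Hspa8, Hspb1, Hspb8 and Dnajb9, and labelled KO nicotine 3 stands above its group for Hspa8, Hspb1 and Dnajb9.

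HSP90 and its helpers had lower fitted levels in labelled KO in both exposures. All 5 members lay below 0 in each. By edgeR 4 in air and 5 in nicotine were at an unadjusted p below 0.05 (2.12% and 4.06% of all tested genes were lower). After adjustment 0 were called (0% and 0.00684% lower). Hsp90aa1, the inducible cytosolic HSP90, stood at 1010.5, 729 and 579 CPM in WT air, at 554, 1100.0 and 1483 in WT nicotine, 383, 420.4 and 349 in labelled KO air and 701, 367 and 413 in labelled KO nicotine. The groups in air did not overlap (-1.01 ± 0.35, edgeR adjusted p = 0.995), and over both exposures the value was -1.05 ± 0.25 (edgeR adjusted p = 0.268, DESeq2 0.00245). Stip1, the adaptor that passes clients from HSP70 to HSP90, stood at 178, 181 and 132 CPM in WT air, at 102, 170.4 and 278 in WT nicotine, 88.2, 92.0 and 87.9 in labelled KO air and 133, 79.7 and 91.6 in labelled KO nicotine. All WT air libraries lay above labelled KO air (-0.87 ± 0.31, edgeR adjusted p = 0.995). Hsp90ab1, the constitutive form, gave -0.62 ± 0.23 in air and Ahsa1, which stimulates the HSP90 ATPase, -0.67 ± 0.27, both without overlap.

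Chordc1, an HSP90-binding protein whose start carries the run of heat shock units shown above, stood at 78.0, 32.5 and 33.9 CPM in WT air, at 54.9, 72.9 and 101 in WT nicotine, 40.0, 29.1 and 28.1 in labelled KO air and 43.1, 43.9 and 34.9 in labelled KO nicotine. WT air 8 again lay among the nicotine libraries. Nicotine in WT gave 0.67 ± 0.33 (edgeR adjusted p = 0.547), which was 1.23 without WT air 8 (edgeR adjusted p = 0.0726) and 0.41 without WT nicotine 12, and labelled KO against WT in nicotine gave -0.91 ± 0.34 (edgeR adjusted p = 0.481) without overlap.

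Of the small heat shock proteins, Hspb1 (HSP25), which binds actin filaments, separated the genotypes in air. It stood at 429, 384 and 332.8 CPM in WT air, at 238, 503 and 693 in WT nicotine, 142, 123 and 109 in labelled KO air and 414, 111 and 108 in labelled KO nicotine. Every WT library exceeded every labelled KO library other than KO nicotine 3, which stood near the WT level. The value in air was -1.61 ± 0.54, 3.06-fold lower in labelled KO (edgeR adjusted p = 0.995). It passed when only the 2 air groups were fitted (edgeR adjusted p = 0.0117) or with the skeletal muscle score as a covariate (0.0402). In nicotine it was -1.18 ± 0.53, with overlap, and -2.12 without labelled KO nicotine 3.

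Hspb8, the partner of BAG3, was the only member for which all 6 labelled KO libraries lay below all 6 WT libraries, whatever the exposure (0.267% of all tested genes did so). It stood at 131, 142 and 104 CPM in WT air, at 102, 137 and 187 in WT nicotine, 96.8, 100.2 and 91.5 in labelled KO air and 94.2, 84.7 and 87.0 in labelled KO nicotine. The highest labelled KO library, air 2, was close below the lowest WT library, nicotine 6. Over both exposures the value was -0.53 ± 0.13 (edgeR adjusted p = 0.243, DESeq2 0.0298), and in nicotine alone -0.68 ± 0.18 (edgeR adjusted p = 0.408), or -0.43 without WT nicotine 12. Cryab, alpha B-crystallin, gave -0.53 ± 0.24 in air without overlap. Hspb6 (HSP20), a smooth muscle protein, stood at 78.9, 133 and 96.6 CPM in WT air and at 88.6, 73.5 and 74.6 in WT nicotine, and at 91.4, 78.8 and 92.0 in labelled KO air and 59.8, 66.6 and 97.1 in labelled KO nicotine. All groups overlapped, and nicotine in WT gave -0.38 ± 0.20 (edgeR adjusted p = 0.555), or -0.15 without WT air 9. Hspb2 and Hspb7, found mainly in striated muscle, gave -0.41 ± 0.31 and -0.62 ± 0.32 for nicotine in WT, and -0.61 to -0.08 and -0.94 to -0.34 when single WT libraries were left out.

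The endoplasmic reticulum members carried the only member without overlap between nicotine and air in both genotypes. Dnajb9 (ERdj4), a J-domain helper of BiP, stood at 58.2, 54.1 and 54.2 CPM in WT air, at 58.7, 59.5 and 77.9 in WT nicotine, 38.6, 39.6 and 42.6 in labelled KO air and 73.4, 48.1 and 45.8 in labelled KO nicotine. Each nicotine library exceeded each air library of its genotype (0.533% of all tested genes did so in both genotypes, and 0.486% the opposite), in WT by a margin of less than 1 CPM. Nicotine gave 0.24 ± 0.17 in WT and 0.47 ± 0.17 in labelled KO (edgeR adjusted p = 0.677 and 0.878), the latter being 0.23 without labelled KO nicotine 3, and labelled KO against WT in air gave -0.46 ± 0.17 (edgeR adjusted p = 0.995). Hspa5 (BiP), whose stress element is shown above, stood at 819, 861 and 589 CPM in WT air, at 553, 724 and 1148 in WT nicotine, 486, 457 and 438 in labelled KO air and 878, 434 and 741 in labelled KO nicotine. Its groups in air did not overlap (-0.72 ± 0.28), and nicotine in labelled KO gave 0.57 ± 0.28 with KO nicotine 4 below all KO air libraries (edgeR adjusted p = 0.878), or 0.36 without KO nicotine 3. Hsp90b1 (GRP94), with the same element, gave 0.01 in WT and 0.07 in labelled KO for nicotine.

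The mitochondrial members Hspa9 (mortalin), Hspd1 and Hspe1 gave nicotine values of 0.25, 0.52 and 0.46 in WT and 0.30, 0.41 and 0.26 in labelled KO, with overlap in each case. When single libraries were left out, these ran from 0.09 to 0.56, 0.32 to 0.99 and 0.16 to 0.80 in WT and from 0.11 to 0.52, 0.26 to 0.65 and 0.04 to 0.49 in labelled KO. Hspe1, beside the shared run of units, was highest in WT nicotine 12 at 116 CPM and lowest in labelled KO air 7 at 38.7, the same libraries being highest and near lowest for Hspd1 (379 and 145). Hsf1, the master factor of the heat shock response, stood at 28.3, 37.7 and 34.9 CPM in WT air, at 22.2, 24.2 and 33.6 in WT nicotine, 28.3, 23.8 and 28.0 in labelled KO air and 31.9, 22.7 and 28.2 in labelled KO nicotine. Its groups overlapped in every comparison of nicotine with air, with an interaction of 0.38 ± 0.26 (edgeR adjusted p = 0.999) that ran from 0.25 to 0.57 when single libraries were left out. WT nicotine 11, highest for Hspa1a, Hspa1b, Dnajb1, Dnajb4 and Bag3, was among the lower libraries for Hsf1 transcript. Hsf2 gave -0.35 in air without overlap, and -0.23 without WT air 9.

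Set per kilobase of coding length (longest coding sequence of GENCODE M21, GRCm38), Hsp90ab1 and Hspa8 led at 1014 CPM per kilobase each, averaged over 12 libraries, followed by Hspb7 at 617, Hspb1 at 477 and Hspa5 at 345. Per kilobase of exon, Hsp90ab1 and Hspa8 again led, at 734 and 457, and Hspb7 came eighth. Hspa1l was lowest on both scales, at 0.419 and 0.326 CPM per kilobase.

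Beyond the members, 80 of 88 further genes listed as the chaperone network were tested, and edgeR called 0 in each of the 7 comparisons. The list holds CCT chaperonin and prefoldin subunits and other J-domain, BAG and HSP90 co-chaperone genes. It also holds genes such as Synpo2 that do not encode a chaperone. The lowest adjusted p was 0.354, for Cct7 over both exposures. In that comparison 11 were lower and 5 higher in labelled KO at an unadjusted p below 0.05 (4.27% and 4.13% of all tested genes), and the median of 0.00 was close to that of all tested genes (0.01). Those with the smallest p were the chaperonin subunit Cct7 (-0.33 ± 0.09), the HSP70-interacting St13 (-0.40 ± 0.12) and Ptges3, the HSP90 co-chaperone p23 (-0.35 ± 0.11), all lower, and the J-domain gene Dnajc22, which was higher (3.24 ± 0.90). Dnajc22 was scarce, with group means of 0.228 and 0.0559 CPM in WT air and nicotine and 1.61 and 0.895 in labelled KO.

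In air 8 of the 80 were lower and 1 higher in labelled KO at that level (2.12% and 2.24% of all tested genes), led by the chaperonin subunits Cct7 (-0.34 ± 0.13) and Cct3 (-0.44 ± 0.17) and the J-domain genes Dnajc3 (-0.39 ± 0.15) and Dnajc21 (-0.37 ± 0.15). In nicotine 8 were lower and 5 higher (4.06% and 4.29%). The leading ones were Bag2 (-0.53 ± 0.17), Cct4 (-0.41 ± 0.14) and Bag5 (-0.31 ± 0.12) lower and Dnajc16 (0.45 ± 0.15) higher. For nicotine in WT 1 of the 80, Bag5, was higher (0.29 ± 0.12), and 2 were lower, Dnajb14 (-0.28 ± 0.10) and Dnajc30 (-0.61 ± 0.28), against 5.43% and 4.41% of all tested genes. For nicotine in labelled KO the 2 higher were Dnajc21 (0.38 ± 0.15) and Dnajb11 (0.39 ± 0.18), and the 2 lower the prefoldin subunit Pfdn5 (-0.30 ± 0.11) and Synpo2 (-0.47 ± 0.19), against 2.48% and 2.10%. The interaction gave 1 above 0, Dnajb14 (0.32 ± 0.15), and 1 below, Hspbap1 (-0.73 ± 0.33), against 1.85% and 2.58%. Averaged over genotypes nicotine gave 2 higher and 5 lower (5.62% and 5.33%), led by Synpo2 (-0.39 ± 0.14), Pfdn4 (-0.39 ± 0.15), Dnajc17 (-0.37 ± 0.15) and, higher, Dnajc7 (0.25 ± 0.10). All 10 contractile smooth muscle markers also lay below 0 in that comparison. The part of smooth muscle content in the Synpo2 values was not tested.

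Other transcripts moved between the same libraries. The sum of 12 immediate early genes, a class of rapidly induced regulators, stood at 741, 1166 and 2900.2 CPM in WT air, at 3869, 4161 and 1999.9 in WT nicotine, 3114, 1361 and 2045 in labelled KO air and 1546, 1326 and 2950.4 in labelled KO nicotine. WT air 8, high for Hspa1b, Hsph1 and Dnaja1, had the lowest sum and WT nicotine 11 the highest. With this score as a covariate 15 members were higher with nicotine in WT at an unadjusted p below 0.05 rather than 4, beside 7.11% of all tested genes rather than 5.43%. In the same fit 6 members were lower in labelled KO in air rather than 13, beside 1.96% rather than 2.12%. All 12 genes of this score lay above 0 with nicotine in WT, 5 at an unadjusted p below 0.05, and 4 in labelled KO. For labelled KO against WT in air 11 of the 12 lay above 0. That fit thus cannot fully tell the score apart from exposure or genotype. The count of 13 was 8 with the white adipocyte score (2.52% of all tested genes) and 14 with the skeletal muscle score (2.42%). The genotype count over both exposures was 23 with the immediate early score (4.15%), 24 with the skeletal muscle score (4.32%) and 22 with the white adipocyte score (4.71%), beside 22 without (4.27%).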

How the data were processed

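RNA from 12 thoracic aorta libraries was prepared with the SMART-Seq v4 kit and sequenced on Illumina instruments, per the labels. The authors deposited raw counts per gene symbol made with HTSeq against mm9, per the submitters' processing notes. The sources used here do not give the aligner, annotation or strand setting, so overlapping genes are uncertain. Per the file headers, the authors also deposited nicotine-against-air tables with log2 fold changes and their standard errors, a test score, p-values and adjusted p-values, and a mean signal per gene.

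Counts were filtered with filterByExpr (14621 of 27933 genes kept), scaled by TMM and tested by quasi-likelihood in edgeR 4.0.16, with a robust fit of 4 group means that left 8 residual degrees of freedom. Benjamini-Hochberg adjustment ran over all 14621 genes, and an adjusted p below 0.05 was called. Each SE was derived from the fold change and the test's F. Libraries held 10240031 to 12628323 counts. The common biological coefficient of variation, edgeR's estimate of spread beyond counting error, was 0.233. For scarce genes such as Hspa1l, with 3 to 21 counts per library, counting error weighs more. The members and gene lists were chosen with earlier results of these data known, so no test over the list was made, and background shares stand in for it. Called members, and up to 6 per comparison with the smallest unadjusted p, were given in full. Other genes of the chaperone network were named when called or, up to 4, at an unadjusted p below 0.05. Each marker list was named by its first gene. Alternatives were DESeq2 1.42.0, limma 3.58.1 voom, other size factors, 2 other filters, no robust fit, only the compared groups, 3 marker scores as covariates, and leaving out each library. Counts at an unadjusted p under these alternatives were added after the data were seen. The procedure was tested on simulated counts. R 4.3.3, Python 3.11.15, pandas 2.3.3 and matplotlib 3.10.9 were used. Coding and exon lengths come from GENCODE M21 and promoter windows from RefSeq, both on GRCm38, and were joined by symbol, with no mm9 coordinates used.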

Additional observations from a re-analysis of the deposited data

How the results depend on the processing

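No paired analysis was made because the labels give no pairing of libraries. With DESeq2 the number of members called went from 0 to 3 for nicotine in WT and 6 for labelled KO against WT in nicotine. The shares of all genes called in either direction were 0.676% and 0.530%. It went to 2 for nicotine averaged over genotypes (0.726%) and 13 for labelled KO against WT averaged over exposures (0.784%). With the skeletal muscle score as a covariate edgeR called 1 member in air between genotypes (Hspb1), where it called 0.0137% of all tested genes. On average over exposures it called 2 (Hspa8 and Hspb1), with a background of 0.0479%. All 13 tested skeletal muscle markers lay above 0 in labelled KO on that average, so this fit cannot fully tell score and genotype apart. With only the compared groups edgeR called 1 in air (Hspb1), with a background of 0.0145%. Leaving out each library gave 0 to 1 calls for nicotine in WT, the 1 being Bag3 without WT air 8 (0.227% of all tested genes). The cause was not tested. The median log2 fold change of the members for nicotine in WT was 0.50 with the immediate early score as a covariate, and that of the interaction -0.27. All 12 genes of that score lay above 0 with nicotine in WT and 11 lay below 0 in the interaction. That fit thus cannot fully tell the score and these effects apart. For labelled KO against WT in nicotine the median ran from -0.66 to -0.18 when single libraries were left out, the latter without WT nicotine 12. With the skeletal muscle score as a covariate the median turned from 0.17 to -0.045 for nicotine in WT, from 0.13 to -0.050 in labelled KO and from 0.19 to -0.046 averaged over genotypes, and Hspa8 for nicotine in labelled KO from 0.59 to -0.021. When single libraries were left out the median for nicotine in WT ran from -0.018, without WT nicotine 12, to 0.38, without WT nicotine 6, and that in labelled KO from 0.03 to 0.22. For labelled KO against WT in air the median stayed between -0.46 and -0.34 under all 16 alternatives, and averaged over exposures between -0.53 and -0.28 under all 21. With 3 libraries a group the median SE of a member was 0.26 for nicotine in WT, so small differences were not detectable.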

Other observations

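The 15 genes of the unfolded protein response fixed as a list, whose first gene is the transcription factor Ddit3, were summed beside the chaperones of the endoplasmic reticulum. WT air libraries summed to 1783, 1834 and 1567 CPM, WT nicotine libraries to 1741, 1636 and 2072, labelled KO air libraries to 1606, 1435 and 1555 and labelled KO nicotine libraries to 1732, 1385 and 1766. Of the 15, 13 lay below 0 in labelled KO against WT averaged over exposures, with a median log2 fold change of -0.26 against 0.01 for all tested genes. There edgeR called 0, with 4 lower and 0 higher at an unadjusted p below 0.05 (4.27% and 4.13% of all tested genes). For nicotine 11 of the 15 lay above 0 in WT and 12 in labelled KO, with medians of 0.11 and 0.24 against -0.005 and 0.01. Ddit3 itself stood at 50.2 and 40.2 CPM in WT nicotine 11 and 12 and at 19.5 in WT nicotine 6, while the other 9 libraries lay between 23.0 and 28.9.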
